A study of Mus musculus with 8 samples.

Results

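Cholesterol and fatty acid synthesis are carried out by a chain of enzymes whose genes share control by the sterol regulatory element binding proteins (SREBPs), and 31 of these genes were followed in mouse hepatoma cells exposed to hexavalent chromium, Cr(VI). The members were listed by symbol for their place in the pathway, with earlier results of these data known: 5 genes of SREBP control, 7 genes of the mevalonate steps, 11 genes of the squalene and sterol steps, 1 gene of sterol transfer and 7 genes of fatty acid synthesis. All 31 were found by Entrez gene ID among the 23403 genes of the deposited count table, and all 31 were among the 13619 genes with enough counts to be tested.

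The cells were Hepa-1c1c7 (Hepa-1), a mouse hepatoma line from the American Tissue Culture Collection, kept in α-MEM with fetal bovine serum. RNA-seq covered 2 libraries of cells given 25 µM Cr(VI), added as CrK2O4, for 90 minutes and 2 libraries of control cells without chromium, whose labels do not say to which regimen they belong. Formaldehyde-assisted isolation of regulatory elements (FAIRE), which recovers DNA that is not crosslinked to protein, was sequenced from 1 library per condition: 25 µM Cr(VI) for 90 minutes, 0.5 µM Cr(VI) renewed over 20 passages, and a control for each. No RNA-seq of the passaged cells was used here. Nothing in the labels says that the replicates came from separate cultures, so the p-values measure the spread between these libraries, which may be technical.

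SREBPs are made as precursors held in the endoplasmic reticulum membrane by Scap, the sterol sensor, and by the Insig proteins. When sterols are low, Scap escorts the precursor to the Golgi, where proteases release the part that enters the nucleus and binds sterol regulatory elements (SREs), usually beside sites for the factors NF-Y and Sp1. SREBP from Srebf2 acts mainly on cholesterol synthesis and SREBP from Srebf1 mainly on fatty acid synthesis, and liver cells are a main site of both.

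Sequences upstream of the start sites were examined first, because these genes are known for shared promoter elements. RefSeq promoters of build GRCm38.p6 (250 bases before to 50 bases after a transcript start) were at hand for 25 of the 31 genes; Fdps, Fdft1, Sqle, Stard4, Scd1 and Scd2 had no entry. The 250 bases before the start are shown for 7 genes. Srebf2 had a FAIRE peak over its promoter in the 0.5 µM list and not in the 25 µM list. Insig1 was the only gene of SREBP control with both treated RNA-seq libraries below both controls. Hmgcs1 held the only SRE match, and the others are 4 enzymes with lower expression after 25 µM Cr(VI). Of the genes lower by RNA-seq with an entry but not shown, Mvk and Msmo1 held NF-Y boxes and Acat2 and Acaca held none. Each reads 5′ to 3′ on the strand of the gene, and the capitals mark NF-Y boxes (CCAAT, or ATTGG on the other strand) and the SRE match.
Srebf2 (chr15:82147019-82147268, plus strand): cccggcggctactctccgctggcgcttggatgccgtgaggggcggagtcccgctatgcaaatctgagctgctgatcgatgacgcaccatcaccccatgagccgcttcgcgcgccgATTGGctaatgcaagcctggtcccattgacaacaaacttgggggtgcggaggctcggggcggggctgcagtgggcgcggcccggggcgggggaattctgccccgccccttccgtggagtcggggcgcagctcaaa
Insig1 (chr5:28071162-28071411, plus strand): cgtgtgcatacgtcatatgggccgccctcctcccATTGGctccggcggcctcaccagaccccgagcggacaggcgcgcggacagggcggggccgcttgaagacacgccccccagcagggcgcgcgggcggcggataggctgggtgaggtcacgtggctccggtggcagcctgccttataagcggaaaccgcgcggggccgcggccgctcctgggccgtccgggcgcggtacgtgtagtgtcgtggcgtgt
Hmgcs1 (chr13:119690101-119690350, plus strand): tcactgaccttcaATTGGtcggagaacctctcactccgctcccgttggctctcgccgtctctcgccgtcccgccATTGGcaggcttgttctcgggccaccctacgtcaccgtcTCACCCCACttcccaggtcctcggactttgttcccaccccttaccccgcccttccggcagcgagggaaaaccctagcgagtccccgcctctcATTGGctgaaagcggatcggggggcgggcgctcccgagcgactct
Mvd (chr8:122443423-122443672, minus strand): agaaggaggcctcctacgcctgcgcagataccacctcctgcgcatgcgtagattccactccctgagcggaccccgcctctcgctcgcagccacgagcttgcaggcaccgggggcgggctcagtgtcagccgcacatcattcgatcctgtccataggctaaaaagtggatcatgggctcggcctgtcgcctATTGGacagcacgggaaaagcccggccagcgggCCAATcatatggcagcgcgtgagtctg
Lss (chr10:76531355-76531604, plus strand): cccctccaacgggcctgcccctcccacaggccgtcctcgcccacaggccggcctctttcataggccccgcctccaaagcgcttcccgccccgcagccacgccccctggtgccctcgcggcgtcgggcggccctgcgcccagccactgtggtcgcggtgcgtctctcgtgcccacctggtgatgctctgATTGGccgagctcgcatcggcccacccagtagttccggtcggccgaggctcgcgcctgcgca
Nsdhl (chrX:72918271-72918520, plus strand): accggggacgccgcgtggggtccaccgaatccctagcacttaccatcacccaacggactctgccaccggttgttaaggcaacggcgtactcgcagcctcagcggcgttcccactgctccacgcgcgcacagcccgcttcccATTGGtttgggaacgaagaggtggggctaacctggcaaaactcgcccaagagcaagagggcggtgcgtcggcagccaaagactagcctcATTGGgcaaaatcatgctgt
Hsd17b7 (chr1:169969206-169969455, minus strand): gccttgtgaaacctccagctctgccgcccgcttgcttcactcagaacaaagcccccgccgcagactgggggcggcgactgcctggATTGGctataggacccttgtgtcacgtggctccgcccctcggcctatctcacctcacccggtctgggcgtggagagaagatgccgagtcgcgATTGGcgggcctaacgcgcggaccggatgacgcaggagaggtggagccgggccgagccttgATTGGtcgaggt

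The NF-Y box CCAAT was searched on both strands of the 300 bases, and a gene counted if any of its promoters held a match. It was present in 21 of the 25 genes (84%), against 41.1% of all 27025 genes with a promoter. Of the 10669 of these that were tested by RNA-seq, 43.8% held it. Counted by promoter, the NF-Y box was in 22 of the 34 of the members, against 37.4% of all 32851. The GC box GGGCGG, a form of the Sp1 site, was also present in 21 genes (84%), against 38.2% of all genes and 65.4% of the tested ones. The E-box CACGTG was found in 5 genes (20%), namely Scap, Insig1, Hsd17b7, Sc5d and Dhcr7, against 8.09% and 11.4%. One strict form of the SRE, TCACNCCAC, matched only Hmgcs1, 137 bases before its start, against 1.44% and 1.40%. None of these letters contains another, and a match is a description of the sequence and not evidence of binding. Mvk held 5 NF-Y boxes, Hmgcs1 and Nsdhl held 4 each, and Hsd17b7 and Msmo1 held 3 each, as did Fasn and 1 of the promoters of Insig2. No match to any of the 4 was seen in the single promoter entry of Elovl6 or in that of Acaca, which belongs to a start inside the gene, 1 of 7 annotated starts.

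**Figure D1:**
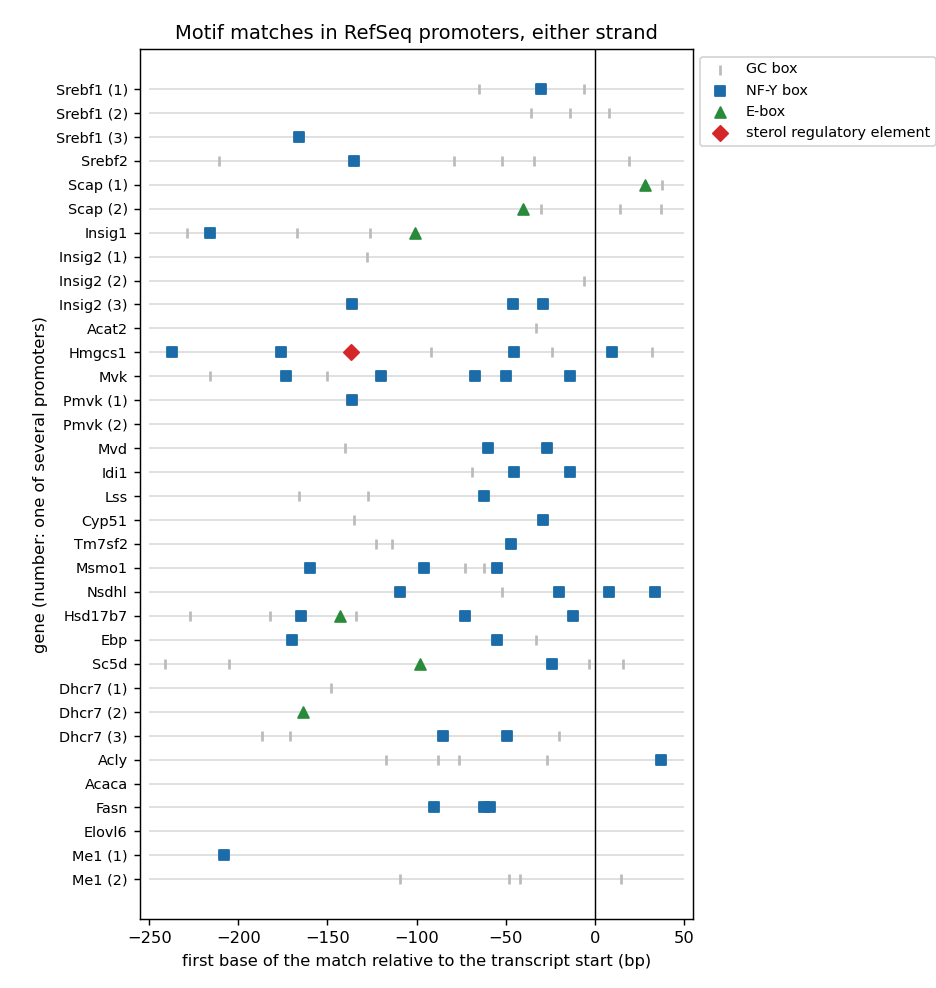
Positions of motif matches on either strand (x axis, base pairs from the transcript start) in each of the 34 RefSeq promoters of 25 genes (y axis; a number marks one of several promoters of a gene). NF-Y boxes (blue squares) were found in 21 genes, GC boxes (grey ticks) in 21, E-boxes (green triangles) in 5 and the SRE (red diamond) only in Hmgcs1.

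The 4 RNA-seq libraries held 32319676 to 37696116 counts each. The treated libraries were less alike than the controls: 1404 tested genes differed by more than 2-fold between the treated replicates and 83 between the control replicates, and the Pearson correlation of log2 expression across genes was 0.974 and 0.997, respectively. Of the markers of hepatocytes, Alb was abundant in every library, whereas Apoa1 (0 to 9 counts) and Hnf4a (8 to 15 counts) were close to absent. Results are therefore given per library, and with and without each treated library.

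After 25 µM Cr(VI) the transcripts of nearly every enzyme were less abundant than in control cells, 11 of them past the test. None of the 5 SREBP control genes passed it, though both treated libraries of Insig1 lay below both controls (log2 fold change −0.68). In a list of 5 genes a count of 0 says little. The summed level of all 31 genes, SREBP control included, in normalized CPM (counts scaled to a common library size), was 5587 and 4147 in the treated replicates against 8342 and 8282 in the controls, which was 0.575% and 0.372% of all counts against 0.871% and 0.859%. Both treated libraries lay below both controls for 26 of the 31 genes, a pattern seen in 34.0% of all tested genes, and above both for 1 gene, Tm7sf2, a pattern seen in 32.2% of all tested genes. By the two-sided quasi-likelihood test of edgeR, with p-values adjusted by the Benjamini-Hochberg method over all tested genes and a threshold of 0.05, 11 genes were lower and 0 higher, where 2.85% of all tested genes were lower and 1.78% higher. Those 0 higher compare with 1 at an unadjusted p below 0.05 (Tm7sf2) and 0 by DESeq2. How many of all tested genes met that unadjusted limit was not counted. The median log2 fold change was −0.87 over the 31 genes and −0.0047 over all tested genes. In bulk RNA, fewer cells that express a gene and less RNA per cell cannot be told apart.

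More of the members passed looser rules. At an adjusted p below 0.1, 20 were lower and 1 was higher (edgeR), where 8.5% of all tested genes were lower and 7.74% higher, and DESeq2 placed 23 lower at 0.05, where it placed 7.61% of all tested genes lower. Treated replicate 2 was below treated replicate 1 for 27 of the 31 genes, against 6894 of the 13619 tested genes. The median over the members relative to the control mean was −0.69 on the log2 scale in treated replicate 1 and −1.07 in treated replicate 2. When either treated library was left out, and the other was assumed to vary as the controls do, most of all tested genes passed the test, so these counts say little of the members. With treated replicate 1 alone 27 members were lower and 2 higher, where 34.7% of all tested genes were lower and 32.5% higher. With treated replicate 2 alone 26 members were lower and 2 higher, where 39.4% of all tested genes were lower and 38.1% higher, and the 11 genes were among those lower in both fits.

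**Figure D2:**
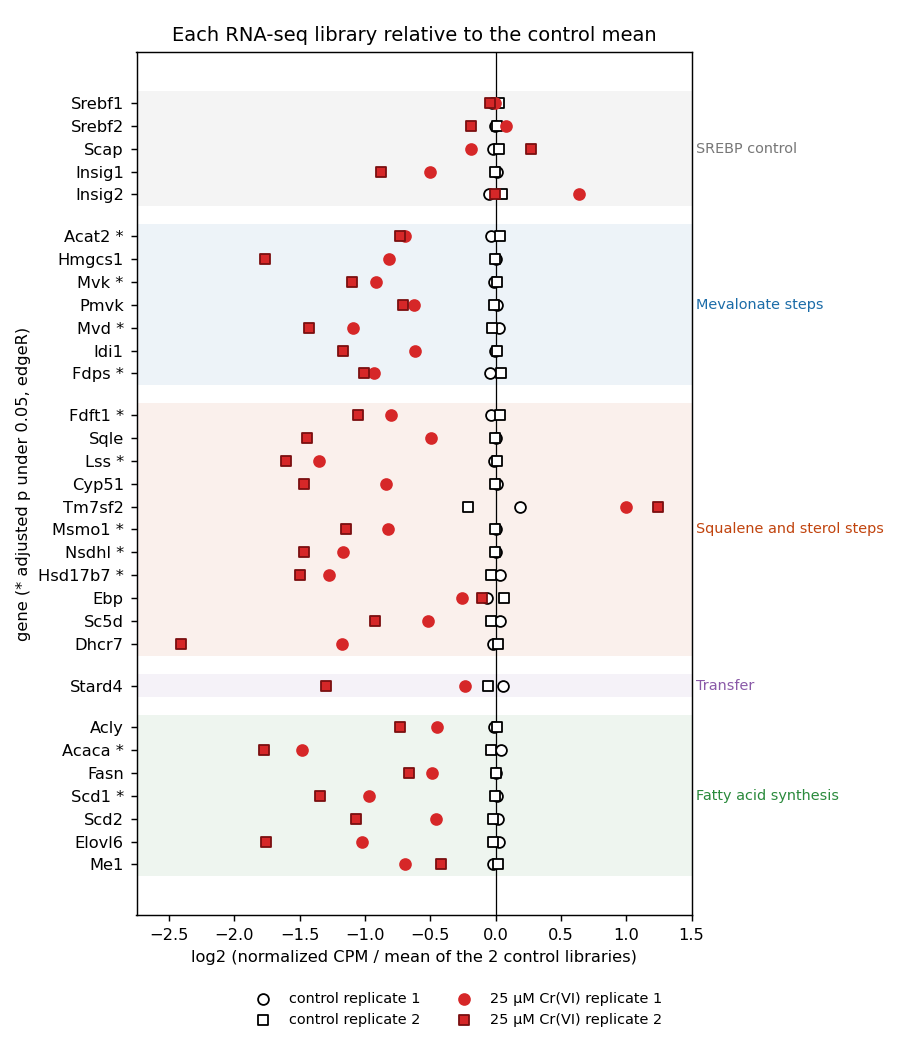
Expression of each of the 31 genes (y axis, grouped by role; * marks an adjusted p below 0.05 in edgeR's test) in each RNA-seq library, as log2 of normalized CPM over the mean of the control libraries (x axis). Filled red symbols, the treated libraries, lay left of the open control symbols for 26 genes and right of them only for Tm7sf2.

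**Figure D3:**
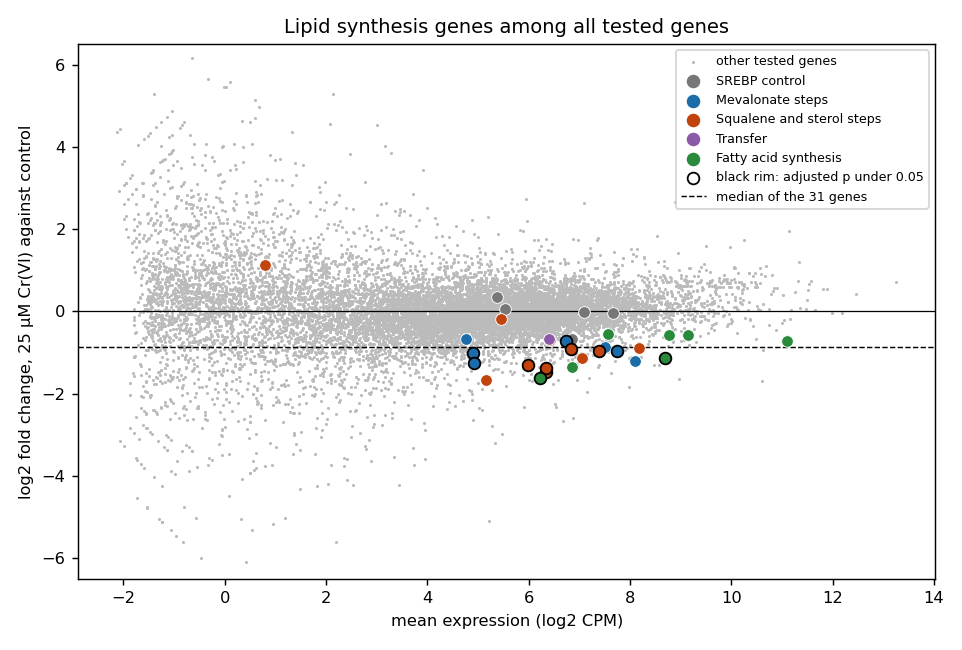
Log2 fold change, 25 µM Cr(VI) against control (y axis), by mean expression in log2 CPM (x axis), for 13619 tested genes in grey and the 31 members in colour by role, with a black rim at an adjusted p below 0.05. The dashed line is the median of the members, −0.87, and most members lie at intermediate to high expression and below 0.

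SREBP control genes did not pass the test, and only 1 of the 5, Insig1, had treated and control libraries that did not overlap. Of all tested genes, 34.0% had both treated libraries below both controls and 32.2% had both above. Srebf1 had 137.0 and 133 normalized CPM in the treated replicates and 135 and 140.0 in the controls, with a log2 fold change of −0.02 (95% interval −0.30 to 0.25, adjusted p = 0.901, edgeR). For Srebf2 the levels were 219.7 and 182 CPM against 207 and 209 CPM, so that the control levels fell between the treated ones (log2 fold change −0.05, interval −0.42 to 0.33, adjusted p = 0.840, edgeR). These intervals bound a change of the precursors' mRNA and say nothing of their processing.

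Scap, which carries the precursors to the Golgi, had 39.99 and 55.03 CPM in treated cells and 44.8 and 46.3 CPM in controls (log2 fold change 0.06, interval −0.44 to 0.56, adjusted p = 0.850, edgeR). Its treated libraries lay on opposite sides of the controls, so its direction turned to −0.19 without treated replicate 2, and scaling by library size alone also turned it, to −0.07. Srebf2 likewise turned to 0.08 without treated replicate 2. Insig2, a retention factor, had 56.3 and 36.1 CPM against 35.0 and 37.5 CPM, with only treated replicate 1 above the controls (log2 fold change 0.35, interval −0.30 to 1.00, adjusted p = 0.380, edgeR).

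Insig1, a retention factor whose gene is itself an SREBP target, had 101.0 and 78.1 CPM in treated cells and 144 and 143 CPM in controls. Both treated libraries were below both controls, at 70.5% and 54.5% of the control mean. Its log2 fold change of −0.68 (interval −1.10 to −0.25) had an adjusted p of 0.0852 by edgeR and 0.0243 by DESeq2, so the call depended on the tool. Together the 5 genes summed to 554 and 484 CPM in treated cells and 565 and 575 CPM in controls.

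Mevalonate steps, which build isoprenoid units from acetyl-CoA, had lower levels in both treated libraries than in both controls for 7 of 7 genes. This pattern was seen in 34.0% of all tested genes. Of the 7 genes 4 passed the test, where 2.85% of all tested genes were lower. The summed level was 667 and 493 CPM in treated cells against 1143 and 1164 CPM in controls. The median log2 fold change was −0.97. Acat2, the cytosolic thiolase that starts the chain (chr17:12943042-12960725, minus strand), had 82.4 and 79.96 CPM in treated cells and 129.6 and 136 CPM in controls. This was the closest agreement between treated libraries among the called genes of the group, with 61.9% and 60.1% of the control mean (log2 fold change −0.71 ± 0.10 (SE), adjusted p = 0.0438, edgeR).

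Mvk, mevalonate kinase (chr5:114444264-114460591, plus strand), had 21.2 and 18.6 CPM against 39.7 and 40.2 CPM (log2 fold change −1.004 ± 0.13 (SE), adjusted p = 0.0391, edgeR). Mvd, the decarboxylase that makes isopentenyl diphosphate, had 19.9 and 15.7 CPM against 43.1 and 41.7 CPM (log2 fold change −1.25 ± 0.16 (SE), adjusted p = 0.0391, edgeR). Both kinase and decarboxylase thus stood at 37.1% to 53.0% of the control mean, without overlap between groups. Fdps, farnesyl diphosphate synthase (chr3:89093588-89101967, minus strand), had 149 and 141 CPM against 275 and 292 CPM (log2 fold change −0.97 ± 0.11 (SE), adjusted p = 0.0342, edgeR).

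The other 3 genes of these steps were lower in both treated libraries without passing the test. Hmgcs1, HMG-CoA synthase and the carrier of the SRE match shown above, had 219.2 and 113.4 CPM in treated cells and 387 and 385 CPM in controls. Its treated replicates stood far apart, at 56.8% and 29.4% of the control mean, and its log2 fold change of −1.21 (interval −2.12 to −0.30) had an adjusted p of 0.108 (edgeR). Pmvk, the next kinase, had a log2 fold change of −0.67 (adjusted p = 0.0606, edgeR), and Idi1, the isomerase, of −0.87 (adjusted p = 0.0906, edgeR).

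Squalene and sterol steps, which close the ring and trim lanosterol to cholesterol, summed to 854 and 602 CPM in treated cells against 1464 and 1464 CPM in controls. Both treated libraries were below both controls for 10 of 11 genes, against 34.0% of all tested genes. By the test 5 were lower, against 2.85% of all tested genes, and the median log2 fold change was −0.97. Fdft1, squalene synthase (chr14:63145150-63181687, minus strand), which commits farnesyl units to sterols, had 85.3 and 71.7 CPM in treated cells and 145 and 152 CPM in controls (log2 fold change −0.92 ± 0.13 (SE), adjusted p = 0.0438, edgeR).

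Lss, lanosterol synthase, had the largest fall among the sterol genes that passed the test. It had 46.6 and 39.0 CPM in treated cells and 118 and 119.5 CPM in controls, or 39.2% and 32.9% of the control mean (log2 fold change −1.47 ± 0.13 (SE), adjusted p = 0.0295, edgeR). Hsd17b7, a ketosteroid reductase of the demethylation of sterols at the fourth carbon, had 48.7 and 41.7 CPM against 120.6 and 115 CPM (log2 fold change −1.38 ± 0.13 (SE), adjusted p = 0.0303, edgeR). Nsdhl, the dehydrogenase of the same demethylation, was close to it, with 39.8 and 32.5 CPM against 90.1 and 89.5 CPM (log2 fold change −1.31 ± 0.14 (SE), adjusted p = 0.0319, edgeR).

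Msmo1, the methylsterol oxidase (chr8:64718123-64733578, minus strand) that precedes Nsdhl in that demethylation, had 125 and 100.5 CPM in treated cells and 222 and 222 CPM in controls (log2 fold change −0.97 ± 0.15 (SE), adjusted p = 0.0467, edgeR). All 3 enzymes of that demethylation thus passed the test, and their treated libraries lay below both controls, as in 34.0% of all tested genes. Cyp51, the demethylase that acts first on lanosterol, had 101.5 and 65.7 CPM against 183 and 181 CPM (log2 fold change −1.12, interval −1.75 to −0.49, adjusted p = 0.0716, edgeR).

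Dhcr7, a terminal reductase of cholesterol synthesis, had the largest log2 fold change of the 31 genes, −1.66 (interval −2.80 to −0.52), and did not pass the test (adjusted p = 0.0950, edgeR). Its levels were 24.1 and 10.3 CPM in treated cells against 53.7 and 55.3 CPM in controls, so that treated replicate 1 stood at 44.2% and treated replicate 2 at 18.9% of the control mean. Sqle, squalene epoxidase, showed the same disparity, with 71.0% and 36.8% of the control mean (log2 fold change −0.89, interval −1.79 to 0.01, adjusted p = 0.167, edgeR). Sc5d, a sterol desaturase, had a log2 fold change of −0.71 (adjusted p = 0.0881, edgeR), and Ebp, the sterol isomerase, of −0.18 (adjusted p = 0.390, edgeR).

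Tm7sf2, a sterol reductase, was the exception in direction. It had 2.13 and 2.52 CPM in treated cells (72 and 73 reads) and 1.21 and 0.921 CPM in controls (42 and 36 reads), which did not overlap. The log2 fold change of 1.13 (interval 0.36 to 1.90) did not pass the test (adjusted p = 0.0937, edgeR), and its control level of 0.720 CPM per kb was the lowest of the 31 genes. Stard4, which carries cholesterol between membranes, had 88.4 and 42.3 CPM against 108 and 100.2 CPM (log2 fold change −0.67, interval −1.66 to 0.31, adjusted p = 0.284, edgeR).

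Fatty acid synthesis genes were below both controls in both treated libraries for 7 of 7 genes, against 34.0% of all tested genes. By the test 2 were lower, against 2.85% of all tested genes. Their summed level was 3424 and 2524 CPM in treated cells against 5061 and 4979 CPM in controls, and the median log2 fold change was −0.73. Acaca, acetyl-CoA carboxylase (chr11:84129635-84401651, plus strand), which makes the malonyl-CoA for chain building, had 40.3 and 32.9 CPM in treated cells and 115.7 and 109.8 CPM in controls. At 35.7% and 29.2% of the control mean it had the largest fall of all members that passed the test (log2 fold change −1.62 ± 0.14 (SE), adjusted p = 0.0295, edgeR). Scd1, a stearoyl-CoA desaturase (chr19:44394450-44407709, minus strand), had 289.8 and 224 CPM against 571 and 564 CPM (log2 fold change −1.14 ± 0.18 (SE), adjusted p = 0.0480, edgeR).

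Elovl6, the elongase acting on the product of the synthase, had 81.2 and 48.7 CPM in treated cells and 168 and 163 CPM in controls (log2 fold change −1.35, interval −2.06 to −0.63, adjusted p = 0.0674, edgeR). Scd2, a second desaturase and the most abundant member, had 2007 and 1309 CPM against 2788 and 2710 CPM (log2 fold change −0.73, interval −1.48 to 0.02, adjusted p = 0.169, edgeR). For both, the treated libraries differed far more than the controls. Acly, which supplies cytosolic acetyl-CoA, Fasn, the fatty acid synthase, and Me1, the malic enzyme that supplies NADPH, had log2 fold changes of −0.55 to −0.58 and adjusted p-values of 0.0937 to 0.102 (edgeR).

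**Figure D4:**
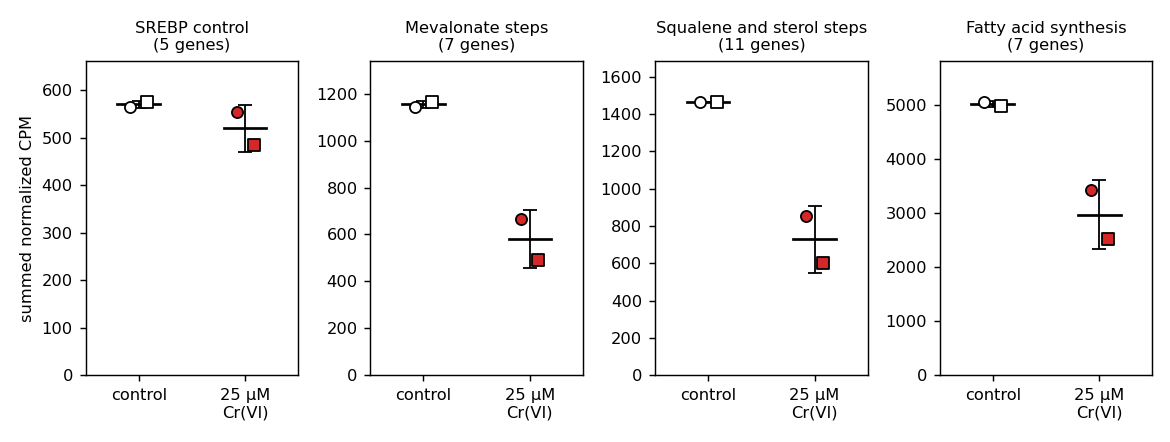
Summed normalized CPM (y axis, from 0) of the genes of each role in the control (open) and treated (filled) libraries; circles are replicate 1 and squares replicate 2, and horizontal lines with bars are the mean ± SD (n = 2). The treated sums lay below the controls in each panel, by the least for SREBP control (554 and 484 against 565 and 575 CPM).

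Part of these calls was lost when either control library was left out. Without control replicate 1, and likewise without control replicate 2, 6 genes were lower (edgeR): Lss, Nsdhl, Hsd17b7 and Acaca, joined by Dhcr7 and Elovl6. Of all tested genes 1.3% were lower without control replicate 1 and 1.29% without control replicate 2. The other 7 of the 11 genes then had adjusted p-values from 0.0859 (Mvd, without control replicate 2) to 0.474 (Acat2, without control replicate 2), with log2 fold changes of −0.69 to −1.30. With scaling by library size alone, which moved the median of all genes to −0.11, only Fdps, Lss, Hsd17b7 and Acaca were lower at 0.05, where 2.31% of all tested genes were.

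Per transcript length, the members covered a wide range of levels. The mean control level in normalized CPM per kb (the longest curated RefSeq transcript) was highest for Scd2 in fatty acid synthesis (504), for Fdps in the mevalonate steps (194), for Sqle in the sterol steps (137) and for Insig1 in SREBP control (54.1). Msmo1 (120), Acly (119), Scd1 (117) and Hmgcs1 (108) came next. The genes that fell most among those that passed the test, Acaca and Lss, were at 12.5 and 18.8 CPM per kb, in the lower range of the enzymes.

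**Figure D5:**
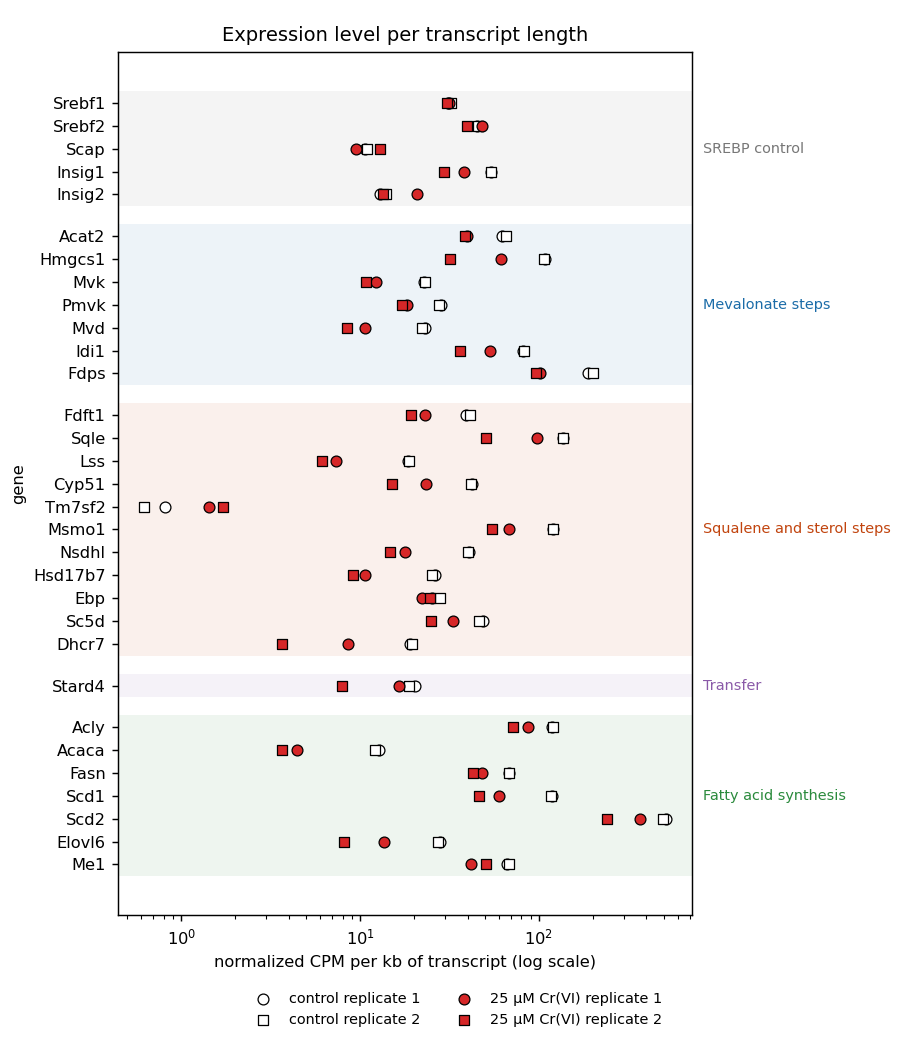
Normalized CPM per kb of transcript (x axis, log scale) of each of the 31 genes (y axis, grouped by role) in each RNA-seq library; open symbols are controls and filled symbols treated cells. Scd2 is the highest, at a control mean of 504, and Tm7sf2 the lowest, at 0.720.

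Counting can be uncertain where genes share sequence or overlap, and how the reads were assigned in such cases, and whether strand was used, is not given in the sources used here. Of the 50-base stretches of the longest transcript, 86.4% of Fdps, 52.6% of Acaca (Gm5182), 45.9% of Acat2 (Acat3 and Tcp1), 32.8% of Me1, 30.7% of Fdft1 (Ctsb), 30.5% of Idi1, 13.6% of Hmgcs1 and 13.1% of Scap also occur in transcripts of other genes, and Scd1 and Scd2 share 4.66% and 4.01% with each other and with Scd3 and Scd4. Exons on opposite strands overlap for Mvd (Gm51557), Lss (4930483K19Rik), Fdft1 (Ctsb), Acaca (Tada2a), Srebf1 (Rai1), Elovl6 (Gm35986) and Me1 (A330041J22Rik). Exons on the same strand overlap for Tm7sf2 (Vps51), whose 36 to 73 reads per library may not be separable from those of its neighbour, and for Scd2 (Mir5114). Among the 17 members with less than 10% shared stretches and no overlapping exon, chosen after the data were seen, 5 were lower. Of these 17, 15 had both treated libraries below both controls, and the median log2 fold change was −0.71. Of all tested genes 2.85% were lower and 34.0% had both treated libraries below both controls.

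Chromatin opening was described from the deposited lists of FAIRE peaks called in treated cells against their control, 2945 peaks for 25 µM Cr(VI) and 860 for 0.5 µM Cr(VI). The paper gives slightly more opened peaks for both treatments, and the cause of the difference was not tested. With 1 library per condition and no read counts in the lists, the peaks have no replicate check and an unknown depth. In the 25 µM list 1 of 31 members had a peak centred within 1000 bp of a start site, against 1.05% of 23281 genes, and 2 had a peak within 10000 bp of the gene, against 9.24%. In the 0.5 µM list 1 member had a peak by each rule, against 0.85% and 2.97%. Each of these counts rests on 1 or 2 genes, and nothing is read from them for the group.

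The 25 µM peak near a start site belonged to Scd2. It spanned 237 bp (chr19:44293001-44293237, mm10) outside the gene, with its centre 557 bp upstream of the start, an authors' score of 55.8 and a GC content of 55.3%, and all 5 of its 50-base stretches that were checked occur once in the genome. Scd2 had lower counts in both treated libraries and did not pass the RNA-seq test. Its peak, on the plus strand, reads as follows.
Scd2 peak (chr19:44293001-44293237): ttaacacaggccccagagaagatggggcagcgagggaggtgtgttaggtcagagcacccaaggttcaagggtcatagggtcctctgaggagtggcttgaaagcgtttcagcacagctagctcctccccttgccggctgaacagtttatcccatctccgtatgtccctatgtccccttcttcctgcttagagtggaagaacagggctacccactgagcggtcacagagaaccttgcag

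The other 25 µM peak was a 53 bp intronic region of Tm7sf2 (chr19:6064508-6064560, score 82.5, 3316 bp downstream of the start). Its GC content was 35.8%, it ends in a run of T, and its 2 checked stretches of 50 bases occur once in the genome. Tm7sf2 was the only member with both treated libraries above both controls, at 36 to 73 reads per library. A link between peak and expression was not tested. In the 0.5 µM list a 983 bp peak (chr15:82146490-82147472, score 53.6) covered the start of Srebf2 and the whole promoter stretch shown above. No other member had a peak within these limits. Of all genes, 9.24% had a 25 µM peak and 2.97% a 0.5 µM peak within 10000 bp, so nothing is read from this absence.

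Neighbouring pathways were read from lists of genes that are no members. Of all tested genes 2.85% were lower and 1.78% higher by edgeR, so in lists this short a count of 0 or 1 says little. Of the SREBP proteases Mbtps1 and Mbtps2, neither passed the test, with log2 fold changes of −0.28 (adjusted p = 0.168, edgeR) and −0.55 (adjusted p = 0.0934, edgeR). Of 8 tested genes of the isoprenoid branches, which lead to ubiquinone, dolichol and prenylated proteins, 1 was lower, and the median log2 fold change was −0.23. That gene was Pdss2, a subunit of the synthase of the ubiquinone side chain, with 9.10 and 7.87 CPM in treated cells and 19.0 and 18.2 CPM in controls (log2 fold change −1.13, adjusted p = 0.0439, edgeR). Its partner Pdss1 had a log2 fold change of −0.72 (adjusted p = 0.0923, edgeR).

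Of 12 tested genes of fatty acid activation, elongation and desaturation, 2 were lower, against 2.85% of all tested genes. Their median log2 fold change was −0.39. Acsl3, an acyl-CoA synthetase, had 134 and 118 CPM in treated cells and 294 and 289 CPM in controls (log2 fold change −1.21, adjusted p = 0.0317, edgeR). Acss2, the cytosolic acetyl-CoA synthetase, had 4.02 and 3.97 CPM against 10.01 and 10.3 CPM (log2 fold change −1.35, adjusted p = 0.0391, edgeR). Fads2, a desaturase, had a log2 fold change of −1.13 (adjusted p = 0.0880, edgeR), and Acacb, the second carboxylase, of 1.04 (adjusted p = 0.0853, edgeR). Of 5 tested genes of sterol efflux and esterification, none passed the test by edgeR, with 2 at an unadjusted p below 0.05. The share of all tested genes at that unadjusted limit was not counted, so nothing is read from the 2. DESeq2 placed 1 lower, against 7.61% of all tested genes. Abca1, the cholesterol exporter, had a log2 fold change of −0.83 (adjusted p = 0.0749, edgeR), and Soat2, which esterifies cholesterol, of 0.82 (adjusted p = 0.187, edgeR).

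Markers of liver and of other cell types were read in the same libraries. Of these markers 4 passed the test, all higher after treatment, where 1.78% of all tested genes were higher. The 9 tested of 11 hepatocyte markers summed to 5320 and 5893 CPM in treated cells and 2206 and 2270 CPM in controls. Most of that was Alb (3667 and 3550 against 905 and 948 CPM) and Trf (1432 and 2076 against 1094 and 1111 CPM). Of the 9, 7 had both treated libraries above both controls (32.2% of all tested genes did). Alb and Ttr were higher (log2 fold change 1.96 and 2.46, adjusted p = 0.0317 and 0.0332, edgeR), Ttr with only 12 and 13 reads in controls. Afp and Serpina1a had log2 fold changes of 0.03 and 0.004. The 5 tested of 6 fibroblast markers summed to 1287 and 1415 CPM against 702 and 713 CPM, with Dcn higher (log2 fold change 1.16, adjusted p = 0.0362, edgeR) and Col1a2 at 0 to 5 counts. Most of that sum was Dcn (959 and 998 against 436 and 443 CPM) and Col1a1, 2 of the 5 markers had both treated libraries above both controls and 1, Pdgfra, had both below (log2 fold change −0.47), and Col3a1 had a log2 fold change of −0.01. Pecam1 was the only tested of 5 endothelial markers and was higher at 1.77 and 2.24 CPM against 0.489 and 0.486 CPM (adjusted p = 0.0438, edgeR), with Cdh5 at 0 counts in every library. The 3 tested of 6 macrophage and leukocyte markers summed to 44.8 and 63.3 CPM against 63.0 and 63.0 CPM, with Clec4f and Ptprc at 0 to 3 counts, and the 3 tested of 4 cholangiocyte markers to 799.9 and 1045 CPM against 966 and 999 CPM, with Epcam at 0 to 2 counts. No marker of these 2 lists passed the test by edgeR, and DESeq2 called 0 of either. At an unadjusted p below 0.05 were 2 macrophage and leukocyte markers and 1 cholangiocyte marker. The share of all tested genes at that limit was not counted, so nothing is read from these counts. The part of the cell type markers in the lower level of the lipid synthesis genes was not tested.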

How the data were processed

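Per the study's methods, reads were aligned to mm10 by the authors (TopHat for RNA-seq, BWA for FAIRE-seq), and the deposited RNA-seq values are unnormalized read counts per Entrez gene; the tool used for counting is not given in the sources used here. The deposited peak score comes from the authors' MACS calls (default parameters, 1 treated library against 1 control) and was used only to describe and filter peaks. Gene IDs were matched to RefSeq (GRCm38.p6) for 23305 of 23403 genes. Counts were filtered with filterByExpr, normalized with TMM (factors 0.897 to 1.04) and tested with edgeR 4.0.16 (glmQLFit and glmQLFTest, two-sided, Benjamini-Hochberg over 13619 genes); the biological coefficient of variation was 0.193. Levels are TMM-normalized CPM, and levels per kb use RefSeq transcript lengths. With 2 libraries per group an exact permutation test of 1 gene cannot go below p = 0.333, so only fits across all genes were used. DESeq2 1.42.0 and the other alternatives are given in the closing section. The members and lists were chosen with earlier results of these data known. All members could be named; values per library were given for those that passed the test, the SREBP control genes, the 5 others with the largest change and the most abundant per length of each group, and for a few others chosen after their values were seen.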

Additional observations from a re-analysis of the deposited data

How the results depend on the processing

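The count of members called (11 lower) was 4 with library size only, 23 with DESeq2, 21 at an adjusted p below 0.1, and 6 to 29 when 1 library was left out: 28 without treated replicate 1, 29 without treated replicate 2, 6 without control replicate 1 and 6 without control replicate 2. The count was 11 with upper-quartile normalization and 11 without a filter. For all genes the count of 631 became 2015 with DESeq2, 2212 at 0.1, and 287 to 10995 when 1 library was left out. For the 7 neighbouring lists the count of 3 became 8 with DESeq2 and 0 to 43 when 1 library was left out. Fits without 1 treated or 1 control library assume that the lone library varies like the other group. The median log2 fold change of members ranged from −1.06 (without treated replicate 1) to −0.69 (without treated replicate 2) over the settings tried, and no member that passed the test changed direction. The log2 fold change of Srebf2 turned to 0.080 without treated replicate 2 and was −0.18 without treated replicate 1; that of Scap was −0.067 with library size only, −0.19 without treated replicate 2 and 0.28 without treated replicate 1. The cause of these changes was not tested.

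Replicate numbers are shared by the groups, but nothing in the labels says that they pair libraries, and with 2 pairs the correlation of same-numbered deviations was 0.091. With the replicate block, 22 members passed the test (21 lower, 1 higher), and the 11 members were among the 22. Of the 13619 tested genes 2969 passed (1572 lower, 1397 higher), as did 9 genes of the neighbouring lists (8 lower, 1 higher).

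Members with a 25 µM peak near a start site numbered 0 at 500 bp, against 0.601% of all genes, and 2 at 5000 bp, against 2.79%. Within 1000 bp they numbered 0 at a score of at least 60, against 0.374%. Near the gene they numbered 1 within the gene body, against 5.95%, and 1 within 10000 bp at that score, against 3.53%. For 0.5 µM they numbered 3 within 50000 bp of the gene, against 6.34% of all genes. At that score they numbered 0 within 1000 bp of a start and 0 within 10000 bp of the gene, against 0.378% and 1.22%. Nothing is read from these counts for the group. Depth limits Tm7sf2 most, at 36 to 73 reads per library, where every other member had at least 298.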

Other observations

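Pathways that use rather than make fatty acids were also read. Of all tested genes 2.85% were lower by edgeR and 7.61% by DESeq2, so in short lists a count of 0 or 1 says little. The share of all tested genes at an unadjusted p below 0.05 was not counted. Nothing is therefore read from the counts at that limit in this section. Of 8 tested genes of fatty acid oxidation none passed the test by edgeR, with 3 at an unadjusted p below 0.05, 1 lower by DESeq2 and a median log2 fold change of −0.23. Cpt1a, which admits long chains to mitochondria, had 68.5 and 39.9 normalized CPM in treated cells and 127.3 and 127.0 CPM in controls (log2 fold change −1.23, adjusted p = 0.0817, edgeR). Acadl, a dehydrogenase for long chains, had a log2 fold change of −0.46 (adjusted p = 0.128, edgeR).

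Of 9 genes of triglyceride synthesis and lipid droplets, none passed the test by edgeR, 0 had an unadjusted p below 0.05, DESeq2 called 0, and the median log2 fold change was −0.23. Gpam, the first acyltransferase of glycerolipid synthesis, had a log2 fold change of −1.25 (adjusted p = 0.184, edgeR) and Dgat2, which makes triglyceride, of 0.85 (adjusted p = 0.213, edgeR). Of 3 genes that supply NADPH, none passed by edgeR, 1 had an unadjusted p below 0.05 and DESeq2 called 0. Pgd, of the pentose phosphate pathway, had 237 and 344 CPM in treated cells and 194 and 197 CPM in controls (log2 fold change 0.57, adjusted p = 0.161, edgeR), and Idh1 had a log2 fold change of −0.23 (adjusted p = 0.384, edgeR).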
